A study of Homo sapiens with 9 samples.

Results

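The ZNF genes of the distal short arm of chromosome 19 were compared between 3 groups of Chrom-seq libraries. The cells were HEK293T, an established line of human embryonic kidney origin. Members were the protein-coding entries of the count table with a symbol of ZNF and a number, that lie on chromosome 19 and that start before 19.7 Mb (hg19). The rule found 52 of 57820 gene entries, with 48 distinct symbols, since ZNF177, ZNF763, ZNF788 and ZNF709 are each listed as 2 entries. The members fall into 4 blocks, within which neighbouring members start less than 1 Mb apart. Block 1 holds 5 members between 2.82 and 2.94 Mb, block 2 holds 17 between 7.07 and 9.90 Mb, block 3 holds 29 between 11.59 and 12.75 Mb, and block 4 is ZNF333 alone, at 14.80 to 14.84 Mb.

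Chrom-seq labels RNA near a histone mark in living cells. A reader domain that binds the mark carries SunTag peptide repeats, the repeats recruit the peroxidase APEX2, and APEX2 biotinylates nearby RNA, which is then captured on streptavidin. In the CBX1 group the reader was the chromodomain of CBX1, a heterochromatin protein that binds trimethylated lysine 9 of histone H3 (H3K9me3). In the CBX1_W42A group the chromodomain carried the amino acid change W42A, and in the control group the SunTag repeats carried no reader. In all 3 groups the cells co-expressed the SunTag construct and the APEX2 construct for 48 hours and received 500 µM biotin-aniline for 30 min and 1 mM H2O2 for 1 min. The level of the constructs in each library was not analysed here. The labels give no batch or date, and the accession numbers of the CBX1_W42A libraries stand apart from those of the other 6, so a batch and the altered reader cannot be told apart in either comparison with CBX1_W42A. Each group had 3 libraries, which held between 8379542 and 11082852 counted read pairs each. RNA before capture was not analysed here, so a higher count can reflect more captured RNA or more RNA in the cells, and with bulk samples fewer contributing cells and less RNA per cell cannot be told apart. Of the 7 genes fixed as typical of HEK293T cells, VIM averaged 564, 534 and 458 CPM (counts scaled to the library total) in the control, CBX1_W42A and CBX1 groups and PAX2 averaged 6.93, 7.69 and 9.62 CPM. Among the markers of other cell types, HBB and INS had 0 counts in all 9 libraries, PTPRC at most 2 counts in a library, DES 4 to 10 and GFAP 15 to 60. ALB, a liver marker, had 4, 10 and 7 counts in the control libraries, 6, 12 and 10 with CBX1_W42A and 25, 19 and 11 with CBX1 (log2 fold change 1.35 with CBX1 against control, adjusted p = 0.068 in edgeR), and its part in the members' values was not tested.

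ZNF genes encode proteins with tandem C2H2 zinc fingers, each finger contacting a few bases of DNA, and they expanded in tandem arrays, above all on chromosome 19. Many also carry a KRAB domain, which recruits the corepressor TRIM28 and, through it, the H3K9 methyltransferase SETDB1, so these proteins direct H3K9me3 to the sequences they bind. The ZNF genes themselves are known targets of the mark: the finger-coding 3′ exons of many ZNF genes carry H3K9me3 and CBX1 while the gene is transcribed.

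The members' coding sequences were examined for features that they share. Translated from the GENCODE annotation on GRCh37, the 49 members with a coding sequence encoded 3 to 19 zinc fingers, with a median of 11, and 44 of them contained a match to the KRAB domain. Of 542 fingers, 266 (49.1%) were followed by the canonical linker between fingers, whose amino acids read TGEKP. One finger each is printed for 4 members that were higher with CBX1 and for ZNF57, the member with the lowest log2 fold change, to show the shared frame in which the genes differ. Each is the first finger of its gene that lies in 1 exon, has the standard length and precedes that linker. The sequences are reference sequence from GRCh37, on the strand of the gene, with the codons of the linker in capitals.
ZNF441 (chr19:11891567-11891644, plus strand): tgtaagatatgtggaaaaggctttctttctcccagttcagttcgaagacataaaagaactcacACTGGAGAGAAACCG
ZNF442 (chr19:12461691-12461768, minus strand): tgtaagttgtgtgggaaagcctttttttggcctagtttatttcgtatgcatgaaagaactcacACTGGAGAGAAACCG
ZNF491 (chr19:11917249-11917326, plus strand): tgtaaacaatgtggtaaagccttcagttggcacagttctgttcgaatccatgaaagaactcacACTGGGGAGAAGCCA
ZNF846 (chr19:9868742-9868819, minus strand): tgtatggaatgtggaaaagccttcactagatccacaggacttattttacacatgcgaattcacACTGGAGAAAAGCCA
ZNF57 (chr19:2917379-2917456, plus strand): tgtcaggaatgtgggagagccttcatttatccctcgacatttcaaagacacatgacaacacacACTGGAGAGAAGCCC
Among the 3 fingers from block 3, ZNF441 and ZNF442 shared 64 of 78 bases (82.1%), and ZNF491 shared 60 of 78 (76.9%) with each of them. The ZNF846 finger, from block 2, shared 61.5% to 67.9% of its bases with the others. The ZNF57 finger, from block 1, shared 71.8% with ZNF441, 66.7% with ZNF491 and 65.4% with ZNF442. These shares include the linker, which a finger needed to be printed, so part of the likeness was set by that choice. Repeats of longer stretches were measured too. In the 33 members that were tested, at most 3.4% of the exonic stretches of 100 bases occurred elsewhere on chromosome 19, and in 22 of them none did. The share was 10.6% in ZNF799 and 12.2% in ZNF443, which had no counts.

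Whether a member could be measured depended on the gene model. The authors counted reads over whole gene spans with the strands kept apart, and a read within more than 1 gene of its strand was counted for none. Of the 52 members, 27 share part of their span with another gene on their strand, and 5 lie inside one. A gene entered a test if the 6 libraries compared held more than 18 of its reads in all, which 33 members did with CBX1 against control, 31 with CBX1_W42A against control and 33 with CBX1 against CBX1_W42A. The other 19 members had at most 13 counts in total, and 10 of them had none in any library. ZNF700, ZNF799, ZNF443, ZNF564, ZNF625, ZNF878, one entry each of ZNF177, ZNF763 and ZNF709, and the shorter ZNF788 entry were the 10 at 0. Those with counts were ZNF559, ZNF560, ZNF812, ZNF653, ZNF69, ZNF844 and the other entries of ZNF177, ZNF763 and ZNF788. Of the 19, 13 had less than 10% of their span free of other genes on their strand, so a low count there says nothing about the RNA. ZNF560, ZNF812, ZNF69 and ZNF844 were the 4 whose span is at least 95% free. Among these, ZNF560 had 0, 0 and 3 counts in the control libraries, 0, 0 and 1 with CBX1_W42A and 4, 3 and 2 with CBX1. Of the members untested, 5 lie in block 2 and 14 in block 3.

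Levels spanned a wide range. Among the 33 tested members, the mean over the 9 libraries was between 0.366 CPM (ZNF556) and 135 CPM (ZNF317), with a median of 12.1 CPM. ZNF317 and ZNF121 together held 35.1% of the members' CPM. Per kilobase of span free of other genes on the strand, ZNF358 stood first with 7.02 CPM per kb, followed by ZNF317 with 5.86, ZNF121 with 4.34 and ZNF791 with 1.98 CPM per kb. Of the called members, ZNF441 had 0.755 CPM per kb, ZNF442 0.368, ZNF846 0.299, ZNF709 0.113, ZNF490 0.0973, ZNF491 0.0558 and ZNF20 0.0157, and 16 of the 33 tested members stood above each of them on this scale. Summed over all members, the control libraries held 633, 672 and 643 CPM, the CBX1_W42A libraries 611, 699 and 598 CPM and the CBX1 libraries 784, 783 and 735 CPM. The sums of the 3 CBX1 libraries were above those of all 6 other libraries, while the sums of the control and CBX1_W42A libraries overlapped.

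The comparison of CBX1 with the control asked which of these RNAs were captured near the mark. With CBX1, 7 of the 33 tested members (21.2%) were called higher and 0 lower, beside 7.06% higher and 0.34% lower among all 18837 genes tested. A call required an adjusted p below 0.05 (edgeR, quasi-likelihood F test, Benjamini-Hochberg over all genes) together with a minimum of 0.75 in log2 fold change. DESeq2 called 6 members higher and 0 lower, and at an unadjusted p under 0.05 edgeR had 16 members higher and 1 lower. The log2 fold change was above 0 in 30 of the 33 members and its median was 0.39, which stayed at 0.39 with ZNF491 and ZNF20 set to their lower bounds, beside 0.03 over all genes and -0.04 over protein-coding genes. In 16 members all 3 CBX1 libraries were above all 3 control libraries and in 2 (ZNF57 and ZNF317) all were below, beside 17.9% and 19.9% of all genes tested.

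**Figure D1:**
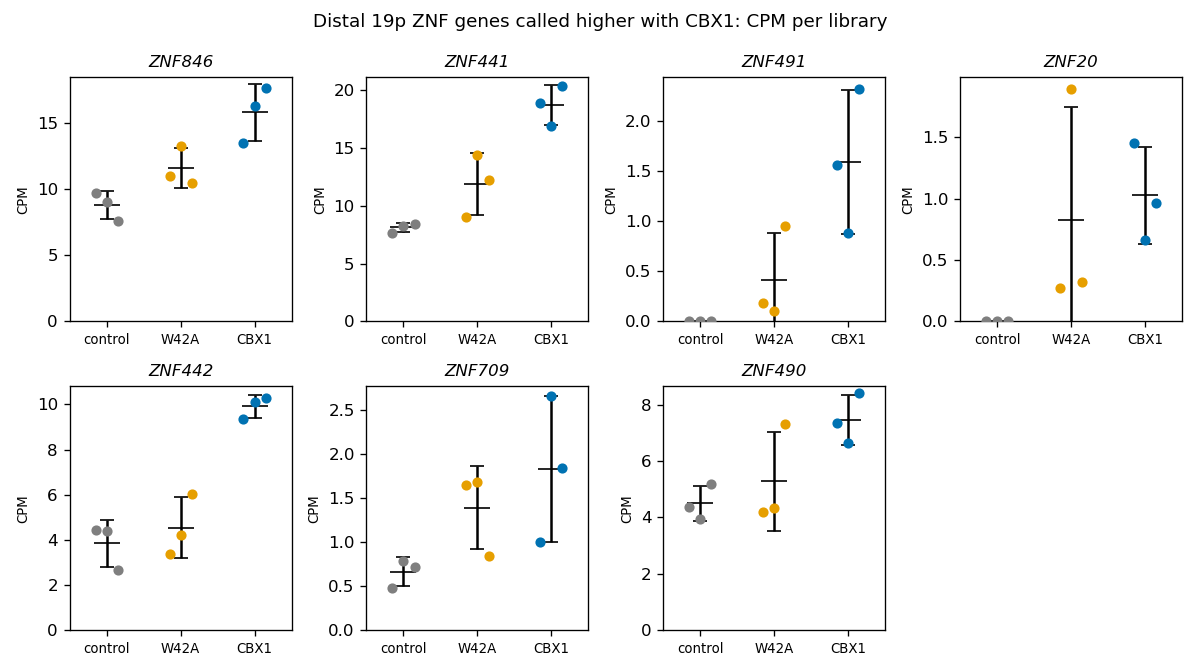
CPM per library of the 7 members called higher with CBX1 against control, 1 panel per gene; points are libraries (grey control, orange CBX1_W42A, blue CBX1) and bars the mean and SD (n = 3 per group). In each panel the 3 blue points lie above the 3 grey points, while the orange points overlap the blue ones for ZNF20, ZNF709, ZNF490 and ZNF491.

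ZNF441 and ZNF442, KRAB zinc finger genes of block 3 with 14 fingers each and no other gene on their strand, had the smallest adjusted p. ZNF441 was at 7.66, 8.26 and 8.45 CPM in the control libraries, at 9.06, 14.4 and 12.2 CPM with CBX1_W42A and at 18.9, 16.9 and 20.4 CPM with CBX1. The 3 groups did not overlap. Its log2 fold change with CBX1 against control was 1.23 (SE 0.15, adjusted p = 7.8e-05 in edgeR). ZNF442 was at 4.46, 4.41 and 2.66 CPM in the control, at 3.39, 4.21 and 6.03 CPM with CBX1_W42A and at 9.35, 10.1 and 10.3 CPM with CBX1. The CBX1 libraries were above all others, while control and CBX1_W42A overlapped. Its log2 fold change against control was 1.37 (SE 0.22, adjusted p = 5.72e-04 in edgeR).

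ZNF491 and ZNF20 were at 0 in the control. ZNF491, which has 10 fingers and no KRAB match, had 0, 0 and 0 counts in the control, 2, 1 and 9 counts with CBX1_W42A and 14, 8 and 24 counts with CBX1 (0.886 to 2.32 CPM). Against the limit that a count of 0 allows, taken as 3 counts over the control group, it was at least 14.8-fold higher with CBX1 (adjusted p = 0.00105 in edgeR). ZNF20, a KRAB gene with 11 fingers, had 0, 0 and 0 counts in the control, 3, 18 and 3 counts with CBX1_W42A and 13, 6 and 10 counts with CBX1 (0.665 to 1.45 CPM). It was at least 9.36-fold higher with CBX1 than the same limit (adjusted p = 0.00285 in edgeR). Both genes had few counts, and for ZNF20 29.1% of the exonic bases are free of other genes on its strand, and its counts can come only from the free part of the gene. These bounds cover counting error only. Both passed the filter on low counts through the CBX1 libraries alone, so a difference was built into their being tested. Among the 31 tested members with control counts 5 were called (16.1%), and the share over all genes was not computed with this restriction.

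ZNF846, a KRAB gene with 11 fingers, was the only member of block 2 that was called. It was at 9.70, 9.05 and 7.61 CPM in the control, at 11, 13.3 and 10.5 CPM with CBX1_W42A and at 13.5, 16.3 and 17.7 CPM with CBX1. The 3 groups did not overlap. The log2 fold change against control was 0.87 (SE 0.17, adjusted p = 0.00206 in edgeR), and the call was lost only where a minimum log2 fold change of 1 was asked.

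ZNF490 and ZNF709 passed narrowly. ZNF490, with 13 fingers, rose from 4.37, 3.96 and 5.19 CPM in the control to 7.35, 6.65 and 8.41 CPM with CBX1, and CBX1_W42A replicate 3, at 7.30 CPM, lay among the CBX1 libraries. Its log2 fold change was 0.76 (SE 0.22, adjusted p = 0.0209 in edgeR). On its strand 95.1% of its span but only 28.2% of its exonic bases are free of other genes. The call was lost without control replicate 1 (adjusted p = 0.0578), control replicate 2 (0.0558) or CBX1 replicate 3 (0.0957). ZNF709, with 19 fingers the member with most, was at 0.485, 0.792 and 0.724 CPM in the control and at 1.00, 2.66 and 1.84 CPM with CBX1, for a log2 fold change of 1.48 (SE 0.50, adjusted p = 0.0449 in edgeR). Its call was lost without any single library other than CBX1 replicate 1, with an adjusted p of 0.136, 0.0613 and 0.0834 without control replicates 1, 2 and 3, 0.19 without CBX1 replicate 2 and 0.11 without CBX1 replicate 3. In the listed ZNF709 entry, 12.8% of the span and 0% of the exonic bases are free of other genes on the strand, so these reads lie outside its exons as GENCODE v44lift37 gives them.

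Another 7 members passed the adjusted p but not the fold, and were named after their values were seen where they were not among the most abundant. Without a minimum fold, 14 of 33 members were higher and 1 lower, beside 10.6% and 9.46% of all genes. ZNF266, a gene of block 2, was at 31.7, 35.4 and 38.8 CPM in the control, at 33.6, 33.2 and 30.3 CPM with CBX1_W42A and at 50.7, 55.9 and 46.9 CPM with CBX1. The CBX1 libraries stood above the other 6, and the log2 fold change was 0.56 (SE 0.11, adjusted p = 0.00282 in edgeR). ZNF121, which has 9 fingers and no KRAB match, was at 98.5, 96.2 and 92.4 CPM in the control and at 138, 126 and 117 CPM with CBX1, a log2 fold change of 0.43 (SE 0.09, adjusted p = 0.00423 in edgeR). ZNF333, the single gene of block 4, was at 30.0, 28.2 and 32.0 CPM in the control and at 50.0, 43.9 and 40.1 CPM with CBX1, a log2 fold change of 0.59 (SE 0.11, adjusted p = 0.00219 in edgeR). It is the last member before the boundary, and the first ZNF gene beyond it, ZNF101, had a log2 fold change of 0.43. The log2 fold change was 0.61 in ZNF426, 0.63 in ZNF44, 0.54 in ZNF440 and 0.36 in ZNF791. ZNF440 missed an adjusted p of 0.05 without control replicate 1 (0.0567) or CBX1 replicate 3 (0.0527) and ZNF791 without control replicate 3 (0.0537) or CBX1 replicate 2 (0.0622). ZNF791 lies on the plus strand within the span of ZNF490 on the minus strand, and the 2 genes kept separate counts because the strands were counted apart.

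ZNF57, of block 1, was the only member lower at an adjusted p below 0.05, and its change was under the minimum fold. It was at 29.4, 30.5 and 31.1 CPM in the control, at 22.8, 30.9 and 23.3 CPM with CBX1_W42A and at 20.7, 22.9 and 19.9 CPM with CBX1. The CBX1 and control libraries did not overlap, and the level fell by 0.50 on the log2 scale (SE 0.12, adjusted p = 0.00708 in edgeR). ZNF317, the most abundant member, was at 139, 161 and 149 CPM in the control and 138, 133 and 116 CPM with CBX1, with a log2 fold change of -0.19 that did not pass (adjusted p = 0.171 in edgeR). The other lowest values were -0.18 in ZNF414, 0.03 in ZNF77 and 0.05 in ZNF561, and none of these 3 passed.

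**Figure D2:**
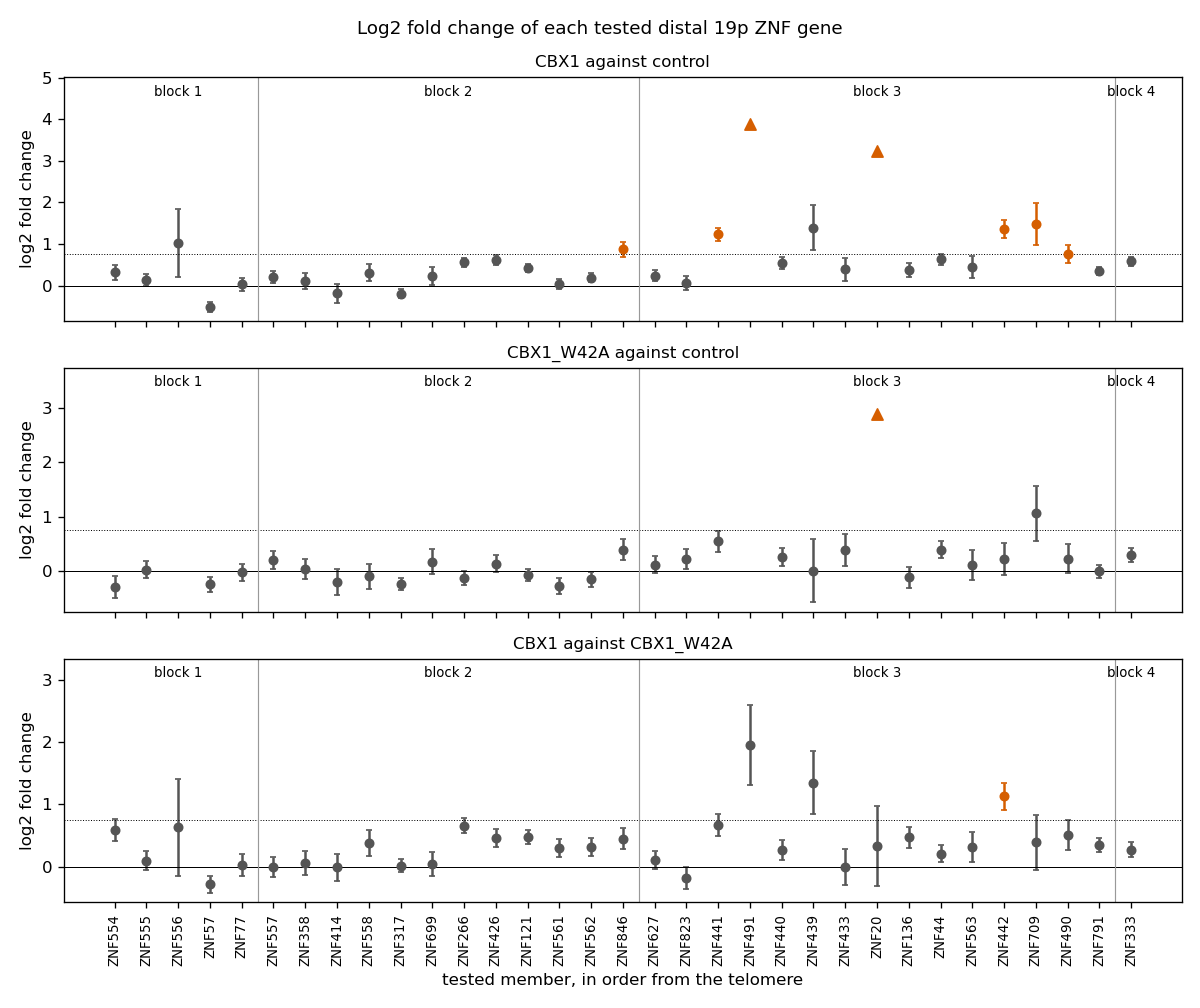
Log2 fold change of each tested member, in order along the arm from the telomere, in the 3 comparisons; dots with bars are the estimate and its SE, triangles are lower bounds for genes at 0 in the control, orange marks called members, grey vertical lines separate the blocks and the dotted line is the minimum log2 fold change of 0.75. With CBX1 against control, 6 of the 7 orange symbols lie in block 3, among them the triangles of ZNF491 and ZNF20.

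The blocks differed in their counts. In block 3, all 15 tested members had a log2 fold change above 0, 6 were called higher (40%) and the median was 0.63. Of these 6, ZNF491 and ZNF20 had no control counts and passed the filter through the CBX1 libraries alone. No share for the block was computed without them. In block 2, 1 of 12 tested members was called higher (8.33%) and the median was 0.22. In block 1, edgeR and DESeq2 each called 0 of 5 members, 0 were higher and 1 (ZNF57) lower at an unadjusted p under 0.05, and the median was 0.14. The share of all genes called higher was 7.06%. The members of block 3 also had fewer reads, with a median log2 CPM of 2.83 against 4.16 in block 2 and 4.06 in block 1, and the part of abundance in the difference between blocks was not tested.

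**Figure D3:**
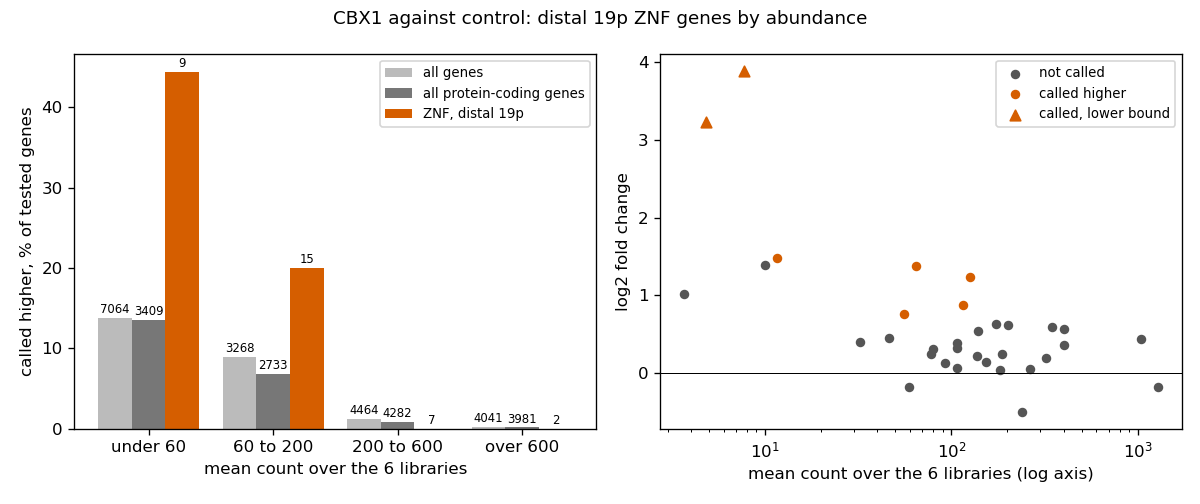
Left, percentage of tested genes called higher with CBX1 against control in 4 ranges of the mean count over the 6 libraries, for all genes, protein-coding genes and the members, with the number tested above each bar. Right, log2 fold change of each tested member against its mean count (log axis), with triangles for lower bounds; the called members all lie below 200 counts.

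Calls were more frequent among genes with few counts in the whole table, so the members were set beside genes of like abundance. Below a mean count of 60, 4 of 9 members were called higher (44.4%) and 13.8% of all genes were. Without ZNF491 and ZNF20, which had no control counts, it was 2 of 7 members (28.6%). Genes without control counts were not taken out of the 13.8%, so these shares are not alike. Between 60 and 200 counts, 3 of 15 members (20%) and 8.94% of all genes were called. In the next range, up to a mean of 600 counts, 0 of 7 members and 1.19% of all genes were called, and above it 0 of 2 and 0.198%. In each range the members' median log2 fold change was above that of all genes, at 1.02 against 0.49, 0.31 against 0.07, 0.36 against -0.07 and 0.12 against -0.16. These counts are small and carry no test of their own.

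The comparison of CBX1_W42A with the control asked what the altered reader captured. edgeR called 1 of 31 tested members higher (3.23%) and 0 lower, beside 0.974% and 0.0214% of all 18680 genes tested. DESeq2 called 0 in either direction, and at an unadjusted p under 0.05 edgeR had 4 members higher and 1 lower. The called gene was ZNF20 (3, 18 and 3 counts against 0 in the control), which was at least 7.35-fold higher (adjusted p = 0.0476 in edgeR). It passed the filter through the CBX1_W42A libraries alone, and among the 30 tested members with control counts 0 were called. The call was lost without CBX1_W42A replicate 2, which holds 18 of its 24 counts (adjusted p = 0.163), without CBX1_W42A replicate 3 (0.0612) and without control replicates 1 (0.132), 2 (0.0844) or 3 (0.0964). Without a minimum fold the count stayed at 1 higher and 0 lower, beside 1.37% and 1.25% of all genes. The members had a median log2 fold change of 0.11, beside 0.01 over all genes, and 19 of 31 were above 0. This median was 0 without CBX1_W42A replicate 2, 0.03 without control replicate 3, 0.07 without CBX1_W42A replicate 1 and 0.02 with the abundance trend removed. In 6 members all CBX1_W42A libraries were above all control libraries and in 1, ZNF317, all were below, beside 12.4% and 11.9% of all genes. By block, the median was -0.14 in block 1, -0.09 in block 2 and 0.22 in block 3.

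ZNF491 was not tested with CBX1_W42A, since its 12 counts fell under the filter, and 9 of these came from CBX1_W42A replicate 3. Over the 3 libraries it was at least 3.67-fold above the limit that the control allows, but without that library the group holds 3 counts, as many as the limit itself. ZNF441 had a log2 fold change of 0.54 with CBX1_W42A (SE 0.20, adjusted p = 0.145 in edgeR), ZNF846 0.39 (SE 0.19, adjusted p = 0.262) and ZNF442 0.22 (SE 0.29, adjusted p = 0.723). These 3 values did not pass, although the libraries of ZNF441 and ZNF846 did not overlap between the groups.

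The difference between the readers was tested directly, with CBX1 against CBX1_W42A. Of 33 tested members, 1 was called higher (3.03%) and 0 lower in edgeR and in DESeq2, beside 0.795% and 0.201% of all 19360 genes tested. At an unadjusted p under 0.05, 14 members were higher and 0 lower. The called gene was ZNF442, with a log2 fold change of 1.13 (SE 0.22, adjusted p = 0.00893 in edgeR). Without a minimum fold, 4 members were higher and 0 lower, beside 1.32% and 0.925% of all genes. The other 3 were ZNF266 with 0.66 (SE 0.12, adjusted p = 0.00343), ZNF121 with 0.48 (SE 0.11, adjusted p = 0.0193) and ZNF441 with 0.67 (SE 0.17, adjusted p = 0.042). Of these, ZNF266 stayed below an adjusted p of 0.05 without any single library (0.0205 at most over all alternatives). ZNF121 reached 0.132 without CBX1 replicate 1, 0.0762 and 0.0596 without CBX1_W42A replicates 3 and 1 and 0.0516 without CBX1 replicate 3. ZNF441 reached 0.184 without CBX1 replicate 3, 0.147 without CBX1 replicate 1, and 0.157 and 0.0883 without CBX1_W42A replicates 1 and 3.

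Over the tested members the median log2 fold change with CBX1 against CBX1_W42A was 0.32, beside 0 over all genes, and 28 of 33 were above 0. In 12 members all CBX1 libraries were above all CBX1_W42A libraries and in 0 all were below, beside 10.1% and 11.3% of all genes. The values ran from -0.28 in ZNF57 (adjusted p = 0.348 in edgeR) to 1.95 in ZNF491 (SE 0.64, adjusted p = 0.111), and neither passed. ZNF491 was called without CBX1_W42A replicate 3 (log2 fold change 3.34, adjusted p = 0.0423 in edgeR) and without the filter on low counts (adjusted p = 0.0331), and ZNF57 was at -0.11 without CBX1_W42A replicate 2. By block, the median was 0.10 in block 1, 0.31 in block 2 and 0.35 in block 3. CBX1 takes part in this comparison and in that against the control, so the 2 sets of values share the CBX1 libraries, and both comparisons against control share the control libraries.

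Other ZNF genes were set beside the members with the same fit. With CBX1 against control, 11 of 25 tested ZNF genes of 19p12 beyond the boundary were called higher (44%, median log2 fold change 0.75), 18 of 129 on the long arm (14%, median 0.37) and 10 of 226 on other chromosomes (4.42%, median 0.05). With 21.2% and 0.39, the distal members lay between the 19p12 genes and those of other chromosomes. Their median was close to that of the long arm. The 21.2% includes ZNF491 and ZNF20, which had no control counts. Among the 31 tested members with control counts the share was 16.1%, and the other lists were not restricted in this way. Against CBX1_W42A, 7 of 25 genes of 19p12 (28%) and 14 of 131 of the long arm (10.7%) were called higher. On other chromosomes 6 of 228 (2.63%) were called, beside 1 of 33 distal members (3.03%). The medians were 0.68, 0.38, 0.05 and 0.32 in that order. With CBX1 against control, the median log2 CPM was 3.65 in the members and 3.96 in the 19p12 genes. It was 3.94 on the long arm and 4.87 on other chromosomes. The differences between these lists, and the part of abundance in them, were not tested.

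**Figure D4:**
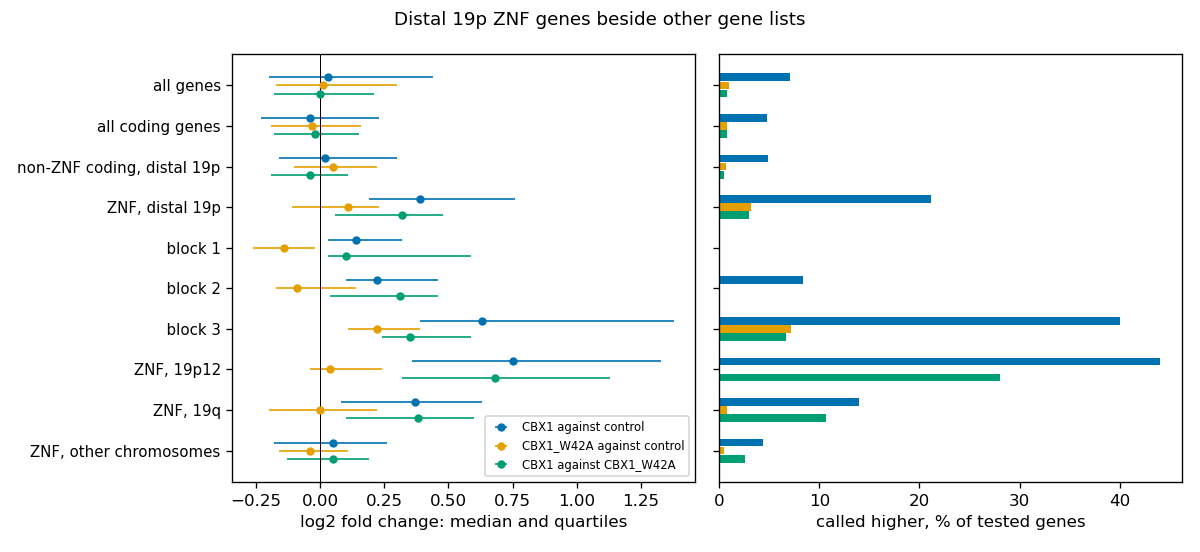
Left, median and quartiles of the log2 fold change over the tested genes of each list in the 3 comparisons (blue CBX1 against control, orange CBX1_W42A against control, green CBX1 against CBX1_W42A). Right, percentage of tested genes called higher. With CBX1 against control the distal 19p ZNF genes stand at 21.2% and block 3 at 40%. Both shares include ZNF491 and ZNF20, which had no control counts. The non-ZNF coding genes of the same part of the arm stand at 4.88%.

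Genes that share the location but not the family were counted in the same way, without a test of the difference in share. Of 410 tested non-ZNF coding genes of the same part of the arm, 20 (4.88%) were called higher with CBX1 and the median log2 fold change was 0.02. Of the 42 tested non-ZNF coding genes inside the blocks, 5 (11.9%) were called higher and the median was 0.13. The median log2 CPM was 4.91 over the 410 genes and 3.73 over the 42, against 3.65 in the members. The part of abundance in these shares was not tested. Within the members, 6 of 29 with a KRAB match and 1 of 4 without one (ZNF491) were called higher, with medians of 0.39 and 0.27. Members with more than 11 fingers had 4 of 15 called and a median of 0.38, and those with 11 or fewer 3 of 18 and 0.44. ZNF491 and ZNF20, which has a KRAB match, had no control counts, and both count among the 3 of 18.

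The RNAs of the KRAB zinc finger and H3K9me3 pathway were followed as a list of 31 genes. It held TRIM28, H3K9 methyltransferases, readers, remodelers, deacetylases, DNA methylation factors, H3K9 demethylases and partners of these. Not all of them place, read or remove H3K9me3 itself. With CBX1 against control, edgeR and DESeq2 each called 0 of them, and the median log2 fold change was -0.14. At an unadjusted p under 0.05, edgeR had 4 higher and 9 lower, and at an adjusted p below 0.05 without a minimum fold 1 was higher and 7 lower, beside 10.6% and 9.46% of all genes. The median was -0.15 with CBX1_W42A against control. The list had a median log2 CPM of 7.36 with CBX1 against control, beside 4.01 over all genes. Over all genes with a mean above 600 counts the median in that comparison was -0.16, and between 200 and 600 it was -0.07. Not all of the 31 were above 600 counts (CDYL2, for example, was not). The part of abundance in these values was not tested. The 1 gene higher with CBX1 against control was ATF7IP, the partner of SETDB1, with 0.52 (adjusted p = 0.00125 in edgeR). The list was led downward by KDM1A, a histone demethylase, with -0.40 (adjusted p = 0.00543). TRIM28, the corepressor that KRAB domains bind, had a log2 fold change of -0.12 (adjusted p = 0.373) and SETDB1 0.16 (adjusted p = 0.39). With CBX1 against CBX1_W42A, both tools called 0 of the 31. Without a minimum fold edgeR had 2 higher and 0 lower, beside 1.32% and 0.925% of all genes. They were ATF7IP with 0.73 (adjusted p = 0.000733) and SETDB1 with 0.47 (adjusted p = 0.0327). SETDB1 was at -0.33 with CBX1_W42A against control (adjusted p = 0.167 in edgeR), and its CBX1 and control libraries overlapped.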

How the data were processed

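Chrom-seq libraries of 3 groups (n = 3 each) were analysed. The authors trimmed reads with fastp (0.23.1), aligned them to hg19 with HISAT2 (2.1.0) and counted them with featureCounts (2.0.1) on GENCODE v19, and deposited raw counts for 57820 genes without normalization. The condition came from the labels, and 0 columns were left out. The paper calls the CBX1 replicates independent and speaks of independent repeat experiments for its readers and control. No source used here says whether these or the CBX1_W42A libraries were separate cultures. The p-values therefore measure the spread between these libraries, which may be technical. Counting over whole spans, by strand, was read from the counts.

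In each comparison the 6 libraries were normalized by TMM and tested with edgeR (4.0.16, R 4.3.3) as described, DESeq2 (1.42.0) serving as an alternative. CPM used TMM over 9 libraries. The SE was derived from the F statistic. Zinc fingers and KRAB matches were found in translated coding sequences of GENCODE v44lift37, since no protein table was used. Python (3.11.15), pandas (2.3.3) and matplotlib (3.10.9) made tables and plots. The test was checked on simulated counts. The members and gene lists were chosen with earlier results of these data known.

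Named were all called members, the 5 of highest mean CPM, the 5 lowest with CBX1 against control, the extremes of CBX1 against CBX1_W42A, untested members and the genes at the boundary. Alternatives changed the tool, normalization (RLE factors, library size alone), filter (none, filterByExpr), fold threshold, libraries fitted, replicate block and abundance or span trends.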

Additional observations from a re-analysis of the deposited data

How the results depend on the processing

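With CBX1 against control, the 7 calls became 4 under filterByExpr, which tests fewer genes (29 members), and 14 without a minimum fold, and were 5 to 7 with 1 library left out. The median log2 fold change of 0.39 was 0.48 with library size alone, 0.28 with the abundance trend removed and 0.33 to 0.45 with 1 library left out, lowest without CBX1 replicate 2. With CBX1_W42A against control, the 1 call became 0 under DESeq2, filterByExpr and removal of the abundance trend. The count was 0 to 1 with 1 library left out. The median of 0.11 in this comparison ran from 0 to 0.14 with 1 library left out and was 0.18 with library size alone. With CBX1 against CBX1_W42A, the 1 call became 2 without a filter (42 members tested), 2 with the replicate block, 4 without a minimum fold and 1 to 2 with 1 library left out, and the median of 0.32 ran from 0.19 (without CBX1_W42A replicate 3) to 0.41. The cause of these changes was not tested. Without a filter, ZNF491 was gained against CBX1_W42A, and the main fit had tested it too. ZNF441 and ZNF442 stayed called against control in all 17 alternatives. ZNF709 lost its call in 8 of 16 and ZNF490 in 6 of 17, both with the abundance trend removed (adjusted p = 0.229 and 0.116 in edgeR). The near-0 values that changed sign were ZNF77 (-0.04 with the span trend removed, -0.08 without control replicate 1, and -0.13 without CBX1 replicate 1 to 0.17 without CBX1 replicate 3), ZNF561 (-0.01 with the span trend removed, -0.03 without CBX1 replicate 1) and ZNF414 (0.11 without control replicate 1 to -0.36 without control replicate 2). An alternative chosen after seeing the data kept members whose span was at least 95% free of same-strand genes. There, 5 of 28 were called with CBX1 against control (median 0.40) and 0 of 26 with CBX1_W42A against control. The 5 include ZNF490, with 28.2% of its exonic bases free, and ZNF491, which had no control counts.

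The labels give no meaning to the shared replicate numbers. The correlations of deviations between libraries of the same number were -0.186, -0.215 and 0.042 for control and CBX1, -0.11, 0.142 and 0.132 for control and CBX1_W42A, and 0.168, 0.082 and 0.119 for CBX1_W42A and CBX1, so not every pair was above 0.1 in any comparison and the samples were treated as sharing only a number. In the last of these comparisons every library except CBX1 replicate 2 correlated best with its own number, which is a hint from the data and not from the design. With the replicate block, 6 members were called with CBX1 against control, 1 with CBX1_W42A against control and 2 with CBX1 against CBX1_W42A, where ZNF491 was gained (2.06, adjusted p = 0.0336 in edgeR) and the share of all genes called higher was 1.29%.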

Other observations

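The arm also holds a cluster of olfactory receptor genes, which serve mainly in the nose. The 20 olfactory receptor genes of 19p before the boundary had 5 counts in all 9 libraries together, 4 of them in control replicate 1 and 0 in the CBX1 libraries, and none could be tested. Of the 97 noncoding genes inside the blocks, 12 could be tested with CBX1 against control. Of these, 1 was called higher (8.33%), 10 had a log2 fold change above 0 and the median was 0.42. Over all genes 7.06% were called higher and the median was 0.03. These noncoding genes had few reads, with a median log2 CPM of 1.62. Among all genes with a mean count under 60, 13.8% were called higher and the median was 0.49. With CBX1_W42A against control the median of the 12 tested noncoding genes was 0.25, beside 0.35 over all genes with a mean count under 60. With CBX1 against CBX1_W42A the median of 13 was 0.06, beside 0.12.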
